A study of Mus musculus with 8 samples.

Results

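The integrins and the leukocyte adhesion molecules that meet them were compared between macrophages with high and with low surface MHC class II from mouse pancreas tumours. The set holds 38 genes, of 36994 on the array: 17 integrin alpha chains, 8 integrin beta chains, 5 immunoglobulin superfamily ligands, 4 genes of the junctional adhesion molecule family, 2 genes of the selectin system, the hyaluronan receptor Cd44, and Cd47. A member was found by the gene name of its probes, and its brightest probe stood for it. Of the 38 members, 34 had a probe that 4 or more of the 8 arrays measured well above background and were tested, among 27997 genes tested. Itga7, Itgb6, Itgb8 and Sele did not and are described only.

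Each array held RNA from one sorted sample, and there were 4 MHCII-high and 4 MHCII-low samples. Both groups were macrophages of pancreas tumours that had been implanted in female mice aged 8 to 10 weeks, of a strain written FvBn, and both had been sorted by flow cytometry directly into lysis buffer. The groups differ in their labels by MHC class II alone. No genotype is given for them: the series' design text names wild-type, KPC and FLT3-CRE/LSL-YFP mice and normal as well as tumour tissue, without saying which applies here, and gates other than MHC class II are not given. The label numbers 20435, 20436, 20439 and 20442 each occur once per group, with no word on what they stand for. Whether samples came from different animals is not stated either, so the p-values speak of the scatter among these 8 samples, part of which may be technical.

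Integrins are receptors of one alpha and one beta chain that join the outside of a cell to its actin skeleton, and the alpha chain largely sets what is bound. The beta2 integrins, found on leukocytes, pair Itgb2 with Itgal (LFA-1), Itgam (Mac-1), Itgax (CD11c) or Itgad (CD11d) and bind ICAMs, complement fragments and fibrinogen, while many beta1 integrins bind laminin, collagen or fibronectin. Selectins catch sugars on ligands such as Selplg (PSGL-1), and the junctional adhesion molecules sit at contacts between endothelial cells and on leukocytes.

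The probes that carry the results are 60 bases long and are shown 5′ to 3′ with the mouse positions of the array files (build mm9). The first group is the probe used for each of the 5 members called different between the groups in the main fit, by the rule given below. That fit takes no account of the label numbers.
Itgax (chr7:135294052-135294111, plus strand): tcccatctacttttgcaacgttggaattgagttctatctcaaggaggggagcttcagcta
Itgal (chr7:134477160-134477219, plus strand): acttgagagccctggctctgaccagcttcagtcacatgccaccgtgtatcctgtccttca
Itga6 (chr2:71694756-71694815, plus strand): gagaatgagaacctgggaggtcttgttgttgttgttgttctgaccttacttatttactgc
Itga9 (chr9:118796991-118806400, plus strand): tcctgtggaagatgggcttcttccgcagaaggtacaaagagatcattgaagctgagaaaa
Jam2 (chr16:84821508-84823051, plus strand): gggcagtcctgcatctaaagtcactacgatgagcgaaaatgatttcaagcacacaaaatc
The Itga9 and Jam2 probes cover far more genome than 60 bases, so each crosses a junction between exons. For Itgam, Itga4 and Itgad the outcome turned on which probe or which array was read, so both probes of interest are shown. Capitals mark an unbroken run of alternating C and A.
Itgam, brightest probe (chr7:135261755-135261814, plus strand): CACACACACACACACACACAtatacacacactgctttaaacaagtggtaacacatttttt
Itgam, second probe (chr7:135212140-135212199, plus strand): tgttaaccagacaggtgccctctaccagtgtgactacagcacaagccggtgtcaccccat
Itga4, brightest probe (chr2:79173193-79173252, plus strand): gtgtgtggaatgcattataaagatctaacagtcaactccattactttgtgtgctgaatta
Itga4, other probe (chr2:79132945-79133004, plus strand): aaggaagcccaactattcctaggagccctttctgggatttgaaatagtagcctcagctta
Itgad, brightest probe (chr7:135348577-135348636, plus strand): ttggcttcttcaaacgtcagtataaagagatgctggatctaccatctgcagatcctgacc
Itgad, second probe (chr7:135348901-135348960, plus strand): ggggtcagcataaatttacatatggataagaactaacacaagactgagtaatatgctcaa
The brightest probes of Itgal, Itgam, Itgax and Itgad lie on chromosome 7 within 871.477 kb, and the brightest probes of the last 3 within 86.882 kb. The longest run that probes of different genes of these 4 share is 8 bases.

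Values are log2 processed signals relative to the 75th percentile of the same array, so 0 is the level of that percentile and a step of 1 is a doubling of signal. Differences are MHCII-high minus MHCII-low. A difference was called when its limma p, Benjamini-Hochberg adjusted over the 27997 genes, was below 0.05. By that rule 1380 genes (4.93%) were called, 750 higher and 630 lower in MHCII-high. As a check of the labels, H2-Ab1, a beta chain of MHC class II, was 2.0 higher in MHCII-high on the log2 scale (SE 0.19, adjusted p = 0.0018) and Ciita, the activator of class II genes, 3.03 higher (SE 0.24, adjusted p = 0.00088). All 14 genes of a macrophage list were well above background on all 8 arrays. In MHCII-high 2 of them, Adgre1 and Siglec1, were called lower and none higher, 13 had a difference below 0, and their summed linear level was 196 to 257 against 271 to 345 in MHCII-low. Arrays correlated at 0.951 to 0.968 within MHCII-low, at 0.950 to 0.971 within MHCII-high and at 0.908 to 0.961 between the groups, across genes. All 8 lay on 1 slide scanned at 1 time, in 2 rows: row 1 held 3 MHCII-low and 1 MHCII-high array, and row 2 held 1 and 3, so a difference within a row has 1 array on one side and is given for its direction.

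Of the 34 tested members, 2 rose (Itgax, Itgal) and 3 fell (Itga6, Itga9, Jam2) in MHCII-high, so 5 were called where 4.93% of all tested genes were (2.68% higher, 2.25% lower). The share among the members, which were chosen with earlier results of these data known, was 14.7%. Their median difference was -0.06 on the log2 scale and their median absolute difference 0.40, against 0.0021 and 0.27 over all genes tested. In 9 members the groups did not overlap, 4 of them higher and 5 lower in MHCII-high, where 14.4% of all genes showed such separation (7.48% higher, 6.97% lower). An unadjusted p below 0.05 was reached by 10 of the 34 tested members and by 5512 of the 27997 genes tested. Under other settings the members called were 2 with the slide row as a block (1.63% of all genes), 8 with the normexp background (6.72%), 8 among genes above background on all 8 arrays (6.82%), 6 with the mean of a gene's probes (5.19%) and 5 without both 20435 samples (2.21%; Itgax, Itgb7, Itga6, Itgad and Vcam1). That last setting was chosen after the values of the 20435 samples were seen, so its count is no independent support. With the label number as a replicate block, Itgax and Itga6 alone stayed called, where 474 of all genes were called higher and 328 lower. In such bulk samples, a larger share of cells that make a transcript and more of it per cell cannot be told apart.

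**Figure D1:**
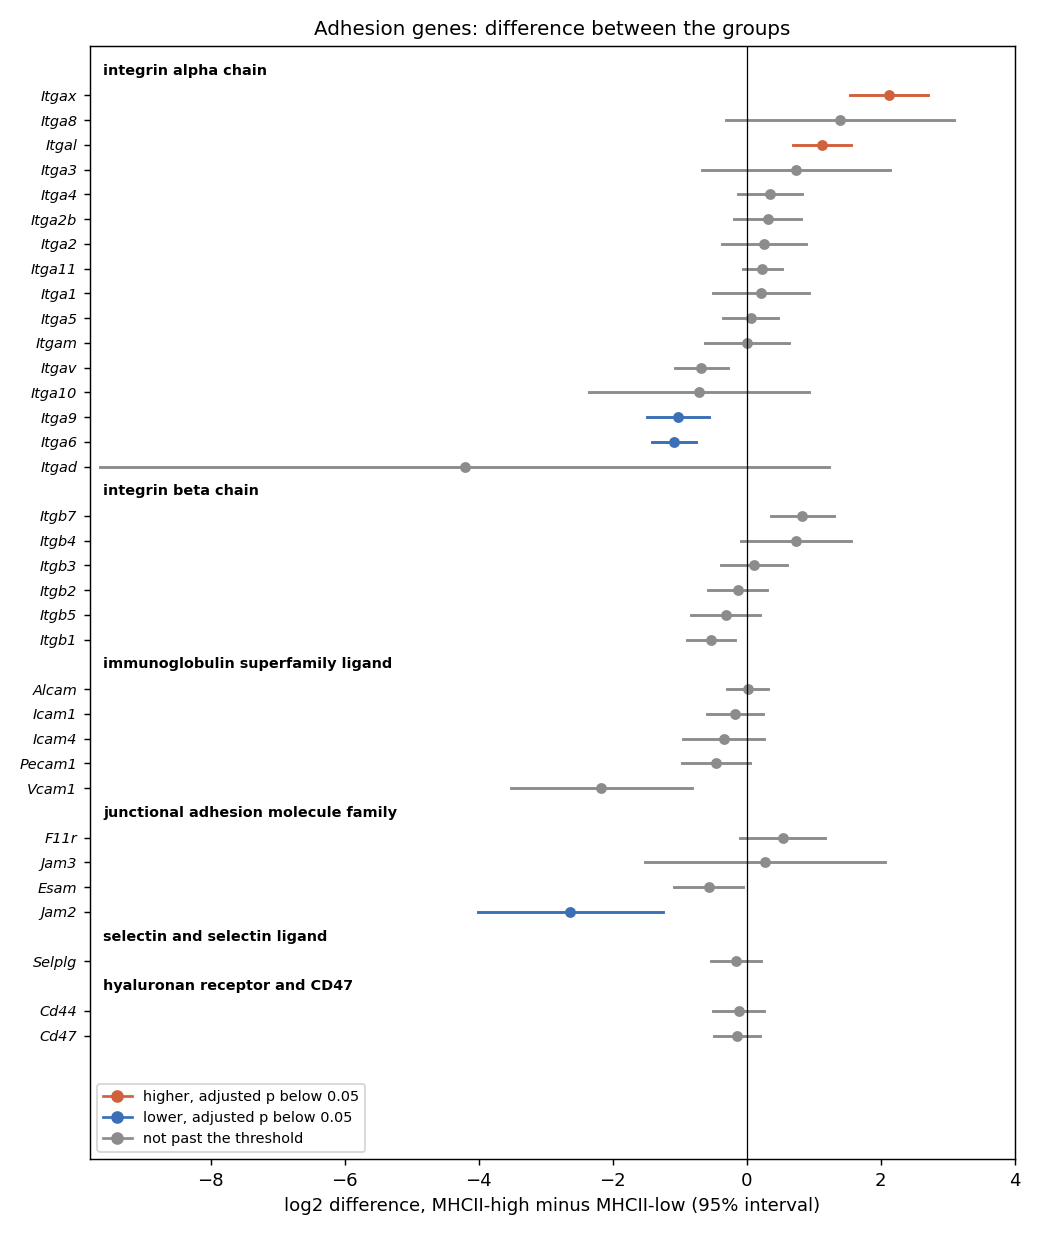
Difference in log2 signal between 4 MHCII-high and 4 MHCII-low arrays (horizontal axis) for the 34 tested members, grouped by role, with the 95% interval of the limma fit as a line. Itgax and Itgal lie to the right and Itga6, Itga9 and Jam2 to the left of 0 in colour; Itgad has the widest interval, from -9.65 to 1.23.

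Among the alpha chains, Itgax showed the largest called rise. Itgax encodes CD11c, long used as a marker of dendritic cells and found on many tissue macrophages as well. Its level was 0.14, 0.39, 1.38 and 0.68 in the MHCII-low samples 20435, 20436, 20439 and 20442. In MHCII-high it was 2.80, 2.69, 2.84 and 2.75. All MHCII-high samples lay above all MHCII-low samples, and they lay within a narrow band (mean 2.77 ± 0.07, SD, n = 4) while MHCII-low spread more widely (0.65 ± 0.54). The difference was 2.12 (SE 0.25), a 4.35-fold rise with a 95% interval of 2.91 to 6.51 (limma, adjusted p = 0.0046). Both further Itgax probes gave it too, at 1.73 and 2.43, each with groups apart and past the threshold in a fit over probes.

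Itgal, the alpha chain of LFA-1 that binds ICAMs on other cells, was at 0.82, 0.92, 1.29 and 1.02 in MHCII-low. It was at 2.32, 1.85, 1.92 and 2.45 in MHCII-high, above every MHCII-low sample. The rise was 1.12 (SE 0.19), or 2.17-fold (95% interval 1.61 to 2.94, adjusted p = 0.016). The call was lost in 4 of the 18 alternative settings, the fit with the label number as a replicate block among them. These included the fit with slide row as a block (1.02, adjusted p = 0.076; 0.84 within row 1 and 1.21 within row 2) and the fits without MHCII-low 20435 (1.06, adjusted p = 0.051) or without both 20435 samples (0.99, adjusted p = 0.099).

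Both rises came with markers of another cell type. Of 16 dendritic cell genes, 14 were called higher and none lower in MHCII-high, with a median difference of 3.33. Of all genes, 2.68% were called higher and 2.25% lower. The marker lists were chosen with earlier results of these data known. The dendritic cell list also holds H2-DMb2, a gene of the class II pathway. The summed linear level of that list ran from 4.67 to 7.45 in MHCII-low and from 39.3 to 65.1 in MHCII-high, and none of its genes was below background on all arrays. The part of such cells in the Itgax and Itgal differences was not tested. Of 8 B cell genes 3 were called higher, with a summed level of 7.93 to 10.9 in MHCII-low and 10.7 to 16.5 in MHCII-high, and of 13 T and NK cell genes none was called either way (12.5 to 21.6 against 12.5 to 19.2); lymphocytes also make Itgal, and their part was not tested.

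Itgad and Itgam are the other partners of Itgb2, and each gave a result that depends on what is read. Itgad encodes CD11d, known from macrophages of the splenic red pulp. Its level was 2.13, 2.43 and 3.0 in MHCII-low 20436, 20439 and 20442, and -2.52, -3.98 and -2.97 in the MHCII-high samples of those numbers. In both 20435 samples the probe was not well above background, at -7.76 in MHCII-low and -7.58 in MHCII-high. So 3 arrays of each group measured Itgad, and on those the MHCII-low values all lay above the MHCII-high ones. The second probe had the same order, with -5.74 in MHCII-low 20435 and -7.51 in MHCII-high 20435.

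Over all 8 arrays the Itgad difference was -4.21 (SE 2.38, adjusted p = 0.38). Leaving out MHCII-low 20435 gave -6.78 (adjusted p = 0.029). Leaving out both 20435 samples, an alternative chosen after their values were seen, gave -5.68 (adjusted p = 0.0048). Genes of red blood cell precursors were also low in those samples. The summed linear level of 5 erythroid genes was 1.09 and 1.21 in the MHCII-low and MHCII-high 20435 samples, where the other MHCII-low samples ran from 25.4 to 49.6 and the other MHCII-high samples from 3.45 to 13.3. None of the 5 erythroid genes was called between the groups, where 4.93% of all genes were, and their part in the Itgad values was not tested.

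Vcam1 shared that pattern in part. It encodes the ligand of the alpha4 integrins and is made by activated endothelium and, in mice, by macrophages of the spleen and of erythroblast islands. MHCII-low 20436, 20439 and 20442 were at 1.95, 2.79 and 2.40 and MHCII-low 20435 at -0.26, whereas MHCII-high was at -0.35, -0.26, -0.54 and -0.68. The 20435 sample of MHCII-low thus lay beside the MHCII-high samples, and the other MHCII-low samples lay well above. The difference was -2.17 (SE 0.59, adjusted p = 0.079) and missed the threshold. It passed without MHCII-low 20435 (-2.83, adjusted p = 0.0026) and without both 20435 samples (-2.87, adjusted p = 0.0089). Leaving out both was an alternative chosen after the values were seen. The second Vcam1 probe gave -3.03 over all arrays.

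**Figure D2:**
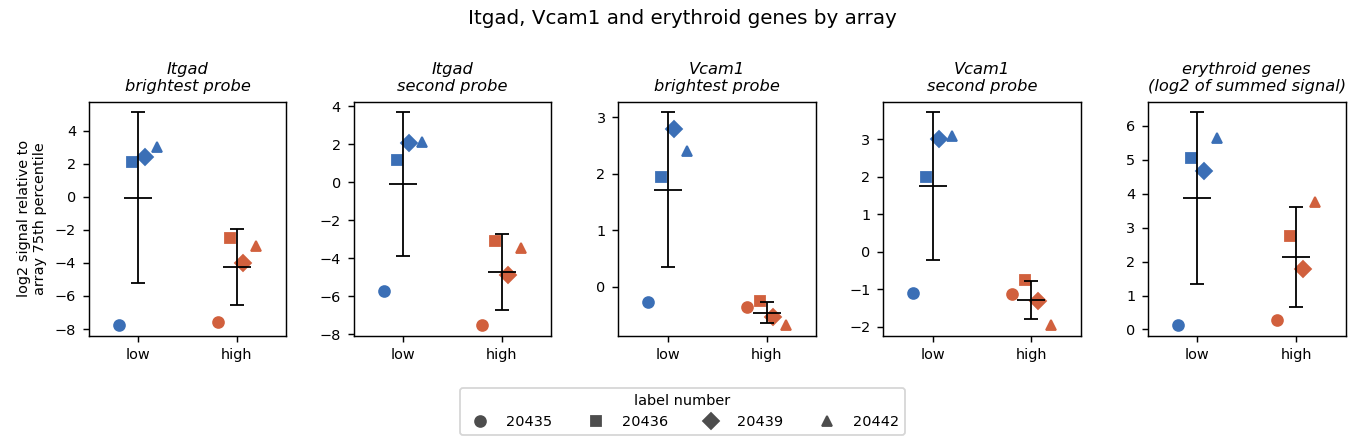
Log2 signal relative to the array's 75th percentile for both probes of Itgad and of Vcam1, and log2 of the summed signal of 5 erythroid genes, in each MHCII-low (blue) and MHCII-high (orange) array; the symbol gives the label number and the bar the mean ± SD (n = 4). The circles, number 20435, lie lowest of the MHCII-low samples in every panel, and lowest in both groups for Itgad and the erythroid genes.

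Itgam, the alpha chain of Mac-1 and a general myeloid marker, was measured by 2 probes that differed. The brightest gave 6.07, 6.12, 6.06 and 6.69 in MHCII-low and 6.22, 5.85, 5.93 and 6.97 in MHCII-high, with groups overlapping and a difference of 0.01 (SE 0.28, adjusted p = 0.99). The second probe, for another Itgam transcript record, gave 5.55, 5.52, 5.23 and 5.49 in MHCII-low and 4.84, 4.63, 4.36 and 4.78 in MHCII-high. There every MHCII-high sample lay below every MHCII-low sample, and the difference was -0.80 (SE 0.16, adjusted p = 0.029 over 41179 probes). The brightest probe opens with the capital run of 20 bases printed above. For the array as a whole, runs of alternating T and G were counted too. By that count 80 of the 56605 probes on the array reach that length (0.141%), and no other probe of a member does. In the second Itgam probe the longest such run is 4 bases. Whether the run of 20 bases bears on the signal was not tested.

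Itgb2, the beta chain that all 4 of these alpha chains share, was at 5.88 ± 0.28 in MHCII-low and 5.75 ± 0.24 in MHCII-high (SD, n = 4 each). The groups overlapped and the difference was -0.13, with a 95% interval of -0.58 to 0.31 (adjusted p = 0.75). Of its 4 tested partners, 2 rose and none was called lower by its brightest probe, against 2.68% and 2.25% of all genes.

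Of the 11 tested alpha chains that pair with Itgb1, 2 fell and none rose, where 2.25% of all genes were called lower and 2.68% higher. No difference between the partners of Itgb1 and of Itgb2 was tested. Itga6, the laminin-binding alpha6 chain, was at 3.04, 2.98, 3.21 and 2.78 in MHCII-low. In MHCII-high it was at 2.07, 1.94, 1.86 and 1.80, below every MHCII-low sample. It fell by 1.09 (SE 0.15), 2.12-fold with a 95% interval of 1.69 to 2.67 (adjusted p = 0.0067). Itgax and Itga6 were the members called in all 18 alternative settings that were run.

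The 4 tested Itga6 probes did not move alike. Probes for other stretches of the transcript gave -1.57 and -1.96, both called over probes, and a probe designed on an Ensembl transcript gave 0.09 (SE 0.22, adjusted p = 0.85 over probes). That last probe was at -0.68, -1.14, -0.52 and -0.39 in MHCII-low and at -0.90, -0.68, -0.25 and -0.52 in MHCII-high, with groups overlapping.

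Itga9, the alpha9 chain that binds tenascin, Vcam1 and Emilin1, was at 2.24, 2.03, 1.93 and 2.47 in MHCII-low and at 1.41, 1.35, 0.72 and 1.09 in MHCII-high. All MHCII-high samples lay below all MHCII-low samples. It fell by 1.02 (SE 0.20), 2.03-fold with a 95% interval of 1.48 to 2.80 (adjusted p = 0.028), and its second probe gave -1.29 (adjusted p = 0.0063 over probes). The call rested on several arrays. It was lost without MHCII-low 20435 (adjusted p = 0.078), MHCII-low 20436 (0.053), MHCII-low 20442 (0.066), MHCII-high 20439 (0.070) or MHCII-high 20442 (0.071), and once the slide row was a block (-1.05, adjusted p = 0.090). The Itga9 call was also lost with the label number as a replicate block. Within row 1 the difference was -0.71 and within row 2 it was -1.40.

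Itgb1, the shared beta1 chain, was at 3.56, 3.34, 3.15 and 3.37 in MHCII-low and at 2.80, 3.0, 2.91 and 2.58 in MHCII-high. The groups did not overlap, but the difference of -0.53 (SE 0.16, 95% interval -0.89 to -0.18) missed the threshold (adjusted p = 0.094). Itgav, the vitronectin receptor chain that also activates TGF-beta, was likewise lower in every MHCII-high sample, at 0.77, 0.81, 0.72 and 0.32 against 1.1, 1.21, 1.52 and 1.49. Its difference by that brightest probe was -0.68 (SE 0.17, adjusted p = 0.066). The other tested Itgav probes gave -0.70, -0.14 and 0.05, each with groups overlapping.

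**Figure D3:**
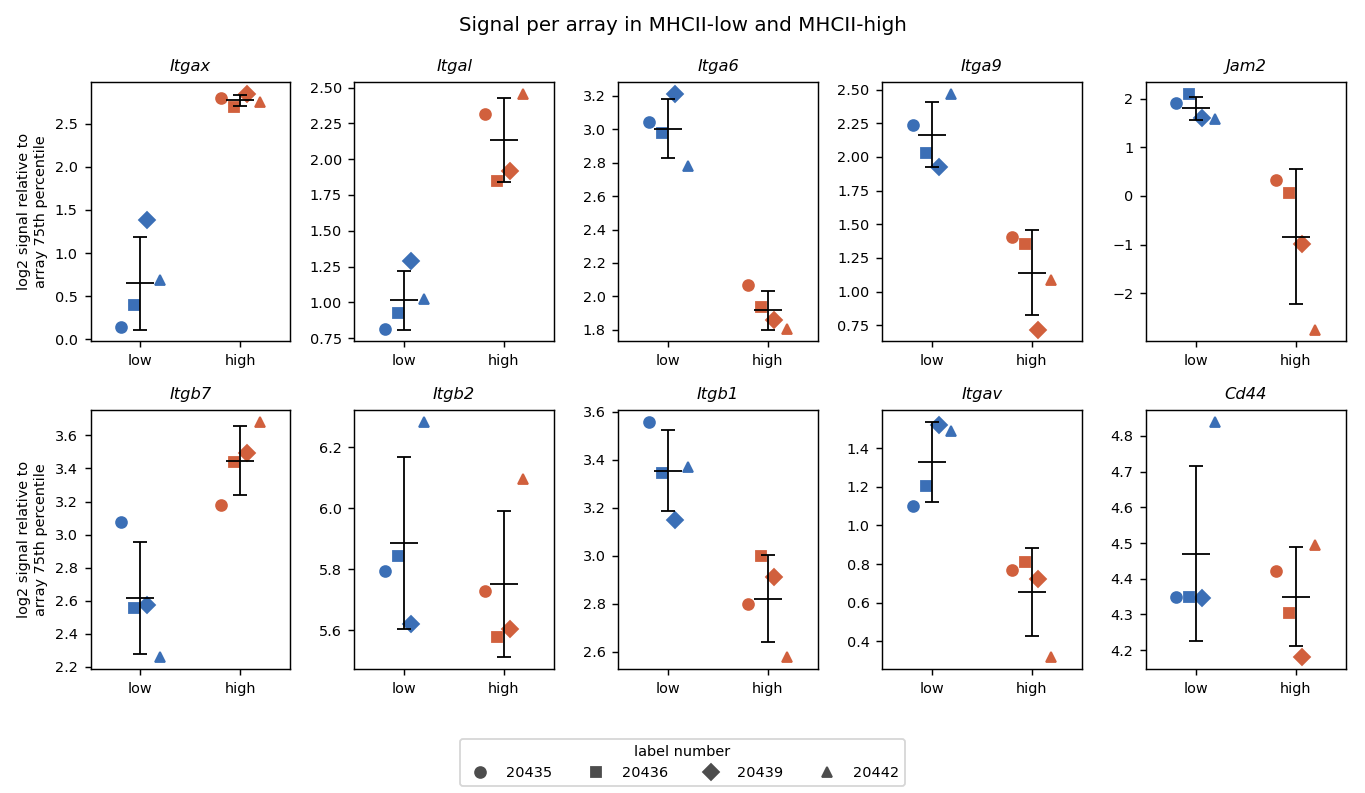
Log2 signal relative to the array's 75th percentile in each MHCII-low (blue) and MHCII-high (orange) array for 10 members; symbols give the label number and bars the mean ± SD (n = 4); each panel has its own vertical scale. The groups are apart for Itgax, Itgal, Itgb7, Itga6, Itga9, Jam2, Itgb1 and Itgav, and overlap for Itgb2 and Cd44.

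Itga4, the alpha4 chain of VLA-4, pairs with Itgb1 or Itgb7 and binds Vcam1 and fibronectin. Its brightest probe was at -0.09, -0.27, 0.55 and 0.28 in MHCII-low and at 0.32, 0.36, 0.41 and 0.76 in MHCII-high, with groups overlapping and a difference of 0.35 (SE 0.21, adjusted p = 0.41). The other Itga4 probe printed above, for an Ensembl transcript, was at -4.19, -3.76, -3.31 and -4.00 in MHCII-low and at -2.06, -1.27, -1.02 and -0.50 in MHCII-high. The groups were apart there, with a difference of 2.61 (SE 0.34, adjusted p = 0.0063 over probes). Of the other probes, one gave 1.48 (adjusted p = 0.061 over probes) and one 0.01, so the mean over the 4 probes was called (1.11, adjusted p = 0.026) where the brightest probe was not.

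Across the set, 83 probes carried a member's name and 62 were tested, with more than 1 tested probe for 18 genes. Over probes, 5 were called higher and 7 lower, where 5.19% of all 41179 tested probes were called. The calls at the level of the probe alone were those of Itga4 and Itgam.

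**Figure D4:**
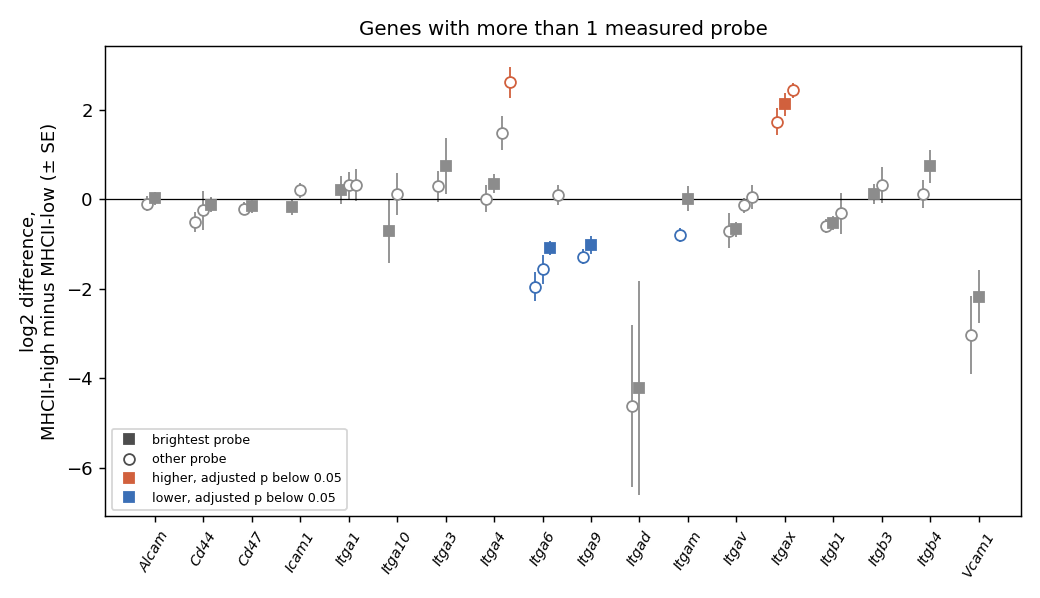
Log2 difference between MHCII-high and MHCII-low (± SE, 4 arrays each) for every tested probe of the 18 members with more than 1; squares are the brightest probes and open circles the others, coloured where the adjusted p over all probes was below 0.05. The probes of Itgax all lie above 0 and those of Itga9 below it, while those of Itga4, Itga6 and Itgam spread from near 0 to a called difference.

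The other alpha chains gave no call. Itga11, a collagen receptor chain, was at -0.92 to -0.69 in MHCII-low and at -0.61 to -0.52 in MHCII-high, apart but by only 0.23 (adjusted p = 0.36). That probe was designed on an Ensembl transcript. The other Itga11 probe, for a RefSeq transcript, was well above background on 0 arrays, so the Itga11 values rest on 1 probe. Itga5, the fibronectin receptor chain, differed by 0.06 with a 95% interval of -0.35 to 0.47. Itga2b, the platelet alphaIIb chain, differed by 0.32 (-0.19 to 0.82). The collagen receptor chains Itga1 and Itga2 differed by 0.21 (-0.51 to 0.93) and 0.26 (-0.37 to 0.89), and Itga3 by 0.74 (-0.67 to 2.15). The interval of Itga10 ran from -2.36 to 0.93. Itga8 was well above background on 2 MHCII-low and 3 MHCII-high arrays only, and Itga7 on 1 and 2.

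Of the 8 beta chains, 6 were tested and none was called, where 4.93% of all genes were. Itgb7, which pairs with Itga4 or with Itgae (CD103), was at 3.08, 2.56, 2.58 and 2.26 in MHCII-low and at 3.18, 3.44, 3.50 and 3.68 in MHCII-high. The groups did not overlap, though MHCII-low 20435 and MHCII-high 20435 were close, and the difference was 0.83 (SE 0.20, adjusted p = 0.058). It passed without MHCII-low 20435 (0.99, adjusted p = 0.042). Itgae itself, which was not among the 38, rose by 4.09 (17.0-fold, SE 0.48, adjusted p = 0.0044), and so did its ligand Cdh1 (E-cadherin), by 1.73 (SE 0.36, adjusted p = 0.034). Itgae also stands on the dendritic cell list.

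Itgb3, Itgb4 and Itgb5, partners of Itgav or Itga6, differed by 0.11 (95% interval -0.39 to 0.61), 0.73 (-0.09 to 1.55) and -0.31 (-0.83 to 0.21). Itgb6 was well above background on 1 MHCII-low and 2 MHCII-high arrays. Itgb8, the chain that with Itgav releases active TGF-beta, was so on 2 MHCII-low arrays and on none of MHCII-high.

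Among the ligands and the junctional molecules, Jam2 fell and no member rose. Jam2 encodes JAM-B, known from endothelial junctions, where it binds Jam3 and the alpha4beta1 integrin. It was at 1.90, 2.09, 1.61 and 1.59 in MHCII-low and at 0.34, 0.06, -0.98 and -2.74 in MHCII-high. The MHCII-low samples lay close together above all MHCII-high samples, which spread widely, with 20442 lowest. The difference was -2.63 (SE 0.61), 6.20-fold with a 95% interval of 2.37 to 16.2 (adjusted p = 0.047).

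The Jam2 call was lost in 12 of the 18 alternative settings, against 8 for Itga9 and 4 for Itgal. It did not hold without any 1 of the 4 MHCII-low arrays (adjusted p = 0.11 without 20435, 0.11 without 20436, 0.098 without 20439, 0.097 without 20442), without MHCII-high 20436 (0.052) or MHCII-high 20439 (0.12), and once the slide row was a block (-2.27, adjusted p = 0.17). The fit with the label number as a replicate block lost the Jam2 call too. Within row 1 the difference was -1.81 and within row 2 it was -2.72. Of 13 endothelial genes, all 8 arrays measured 7 well above background, and no array measured Tek, Emcn or Robo4 so. Of the 8 tested, Cldn5 was called higher in MHCII-high and none lower, where 2.68% of all genes were called higher and 2.25% lower. The summed level of the list ran from 3.40 to 4.55 in MHCII-low and from 3.0 to 4.27 in MHCII-high, and the part of endothelial cells in the Jam2 difference was not tested.

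Markers of serous-cavity macrophages, the resident macrophages of the peritoneum, moved with the falls of Itga6, Itga9 and Jam2. Of 10 such genes, 8 were called lower and none higher in MHCII-high, where 2.25% of all genes were called lower. The list was chosen with earlier results of these data known. Their summed linear level ran from 131 to 175 in MHCII-low and from 75.1 to 88.1 in MHCII-high, and the part of such cells in the 3 falls was not tested. Of 11 platelet and megakaryocyte genes 1, Pf4, was called lower and none higher. Of the 11, 5 had a difference above 0 and 6 below 0, with a median of -0.02. Their summed level, in which bright genes weigh most, ran from 19.4 to 31.0 in MHCII-low and from 9.66 to 11.4 in MHCII-high. The part of such cells in the falls of Itga6, Selp and Thbs1 was not tested either.

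The remaining ligands overlapped between the groups. Icam1, the main ligand of LFA-1 and Mac-1, was at 1.74, 2.24, 2.33 and 2.15 in MHCII-low and at 2.02, 2.0, 2.11 and 1.62 in MHCII-high, a difference of -0.18 (95% interval -0.59 to 0.24). The second Icam1 probe gave 0.19, with groups overlapping. Pecam1, a homophilic molecule of leukocyte passage through endothelium, differed by -0.46 (-0.97 to 0.05). Alcam, which binds Cd6, differed by 0.02 (-0.29 to 0.33), and Icam4, known from red cells, by -0.35 (-0.95 to 0.26).

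In the junctional family, Esam differed by -0.57 (SE 0.22) with an unadjusted p of 0.034 and an adjusted p of 0.21. F11r, which encodes JAM-A, a ligand of LFA-1, differed by 0.53 (-0.10 to 1.17). Jam3 was well above background on 2 arrays of each group, and its interval ran from -1.52 to 2.06.

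Selplg, Cd44 and Cd47 gave intervals that held 0. Selplg, the P-selectin ligand that starts leukocyte rolling, was at 4.16 ± 0.24 in MHCII-low and 4.00 ± 0.12 in MHCII-high, a difference of -0.16 (-0.53 to 0.21). Cd44, which binds hyaluronan, differed by -0.12 (-0.50 to 0.26), and Cd47, which binds thrombospondin and signals through Sirpa, by -0.15 (-0.49 to 0.20). The further Cd44 probes gave -0.25 and -0.52, both with groups overlapping. Sele (E-selectin), made by activated endothelium, was well above background on 1 MHCII-low array and no MHCII-high array.

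Lists of the rest of the pathway were read in the same fit, where 4.93% of all genes were called, 2.68% higher and 2.25% lower. Of 46 tested genes of integrin activation and adaptors, 1 rose and 4 fell, with a median of 0.02. Tln2, the second talin, which links beta chains to actin, fell by 2.61 (SE 0.33, adjusted p = 0.0057). Tln1, the first talin, was at 4.28 in MHCII-low and 4.18 in MHCII-high and was not called (-0.11, adjusted p = 0.78). Tln2 was dimmer, at 1.53 and -1.08. Rasgrp2, the exchange factor that activates Rap1 before integrins open, fell by 1.01 (SE 0.18, adjusted p = 0.017). Src, the tyrosine kinase downstream of bound integrins, rose by 0.84 (SE 0.17, adjusted p = 0.032). Lims2 (PINCH-2, a partner of the kinase Ilk) was measured well above background on 4 MHCII-low and 0 MHCII-high arrays: its means were -3.33 in MHCII-low and -6.61 in MHCII-high, at least 4.23-fold lower against the lowest signals well above background (adjusted p = 0.010). Lims1 was brighter, at 1.87 in MHCII-low and 2.20 in MHCII-high, and was not called (0.32, adjusted p = 0.29).

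Of 37 tested integrin and Cd47 ligands, 2 rose and 3 fell, with a median of -0.25. Lamc1, the laminin gamma1 chain in many of the laminins that alpha6 integrins bind, fell by 1.47 (SE 0.21, adjusted p = 0.0083). Thbs1, a thrombospondin and ligand of Cd47, fell by 1.17 (SE 0.20, adjusted p = 0.016). Emilin1, a ligand of alpha9beta1, fell by 1.19 (SE 0.24, adjusted p = 0.028). Mfge8, which bridges dying cells to alphav integrins, rose by 0.86 (SE 0.15, adjusted p = 0.016) beside Cdh1. Of 11 fibroblast genes none was called, where 4.93% of all genes were, and all 11 had a difference below 0, with a median of -0.94. Their summed linear level ran from 27.6 to 73.9 in MHCII-low and from 9.62 to 63.0 in MHCII-high. The part of fibroblasts in the falls of Lamc1, Thbs1 and Emilin1 was not tested.

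Of 38 tested genes of leukocyte adhesion outside the 38 members, 4 rose and 6 fell, with a median of -0.17. Selp (P-selectin), the partner of Selplg, fell by 3.12 (SE 0.31, adjusted p = 0.0023), and Icam2, a ligand of LFA-1, by 2.44 (SE 0.35, adjusted p = 0.0084). Both also stand on the serous-cavity list. Siglec1, a sialic acid receptor of macrophages, fell by 1.71 (SE 0.22, adjusted p = 0.0063). Jaml, a junctional adhesion molecule-like receptor, rose by 2.44 (SE 0.31, adjusted p = 0.0055) and Nectin1 by 1.28 (SE 0.20, adjusted p = 0.011). Of 23 enzymes that build selectin ligands 1 was called, B4galt1, which fell by 0.85 (SE 0.20, adjusted p = 0.046). That share, 4.35%, is near the 4.93% of all genes.

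RefSeq (build GRCm38.p6) gave promoter windows of 300 bases around a start for 25 of the 38 members in 28 promoters. The promoters of the neighbours Itgax and Itgam are shown because one gene rose and the other gave no call by its brightest probe. Capitals mark the letters TGAGTCA, an AP-1 motif, in Itgax and GAGGAA, a PU box, in Itgam, either one on whichever strand.
Itgax promoter (chr7:128129300-128129599, plus strand): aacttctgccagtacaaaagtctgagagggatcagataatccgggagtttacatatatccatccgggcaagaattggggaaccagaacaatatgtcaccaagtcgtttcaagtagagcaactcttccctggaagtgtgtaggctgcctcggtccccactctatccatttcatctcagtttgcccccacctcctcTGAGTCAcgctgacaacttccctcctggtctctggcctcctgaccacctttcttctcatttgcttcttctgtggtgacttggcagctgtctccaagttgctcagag
Itgam promoter (chr7:128062390-128062689, plus strand): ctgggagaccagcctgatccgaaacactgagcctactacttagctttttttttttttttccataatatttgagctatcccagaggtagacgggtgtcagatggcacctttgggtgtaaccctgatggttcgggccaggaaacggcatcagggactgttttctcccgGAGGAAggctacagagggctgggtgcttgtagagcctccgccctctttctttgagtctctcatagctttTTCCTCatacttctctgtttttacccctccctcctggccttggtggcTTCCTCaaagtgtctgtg
TGAGTCA stood 56 bases before the Itgax start. It was found, on either strand, in 5.20% of the 32851 promoters in the table and in those of 4 members, F11r, Itga9, Itgax and Sele. GAGGAA was found 3 times in the Itgam promoter and at least once in 28.3% of all promoters and in 13 of the 28 of members. Itgax rose and Itga9 fell, so the members that hold TGAGTCA did not share a direction. A match is a description of letters only.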

How the data were processed

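The authors' scanner output gives a linear intensity per spot for 8 one-colour Cy5 arrays. It was made with Agilent Feature Extraction 11.5.1.1, per the submitters' processing notes. The processed signal is background-subtracted and detrended, per the file headers. RNA had been amplified and labelled chemically, per the labels' protocols. The deposited series table holds log2 values whose making is not stated in the sources used here. Its columns had medians of 9.38137 to 9.38149 and followed a quantile normalization of the processed signals at r of 0.99999 or more, so it served as an alternative only.

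Control spots and outlier spots were left out, spots of a probe were averaged, and the log2 processed signal was set relative to the 75th percentile of its array. A gene was tested when a probe was well above background, by the scanner software, on at least 4 of 8 arrays. The brightest such probe stood for the gene. Differences were fitted with limma 3.58.1 in R 4.3.3 over all 27997 genes, with Benjamini-Hochberg adjusted p-values and a threshold of 0.05; a fit over 41179 probes served for members with several probes. The script was tested on simulated data.

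Arrays per group (n = 4) limit the precision. Members and lists were chosen with earlier results of these data known. The text names all 38 members and, per pathway list, the called genes up to the 3 of lowest adjusted p in each direction. Tln1 and Lims1 are named beside Tln2 and Lims2. Alternatives were the normexp background, quantile normalization, the series table, other filters, the mean of probes, outlier spots kept, a replicate block, a slide-row block and leaving out arrays. No annotation of build mm9 was used here, so exons are not given.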

Additional observations from a re-analysis of the deposited data

Results flagged for a closer look

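In 8 of the 76 groups of 4 arrays examined (38 members in both groups), 1 array stood apart from the others by more than Dixon's 95% critical value allows. Chance gives about 1 such group in 20. Of the 8, 3 fell on MHCII-low 20442: Itgam at 6.69 (the other MHCII-low arrays 6.06 to 6.12), Selplg at 4.52 (4.02 to 4.06) and Cd44 at 4.84 (4.34 to 4.35). These are high signals. The median deviation of the brightest 280 genes from their mean over the 8 arrays was 0.21 on that array, 0.30 on MHCII-high 20442 and between -0.17 and 0.03 on the other arrays, and its part in the 3 values was not tested.

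Itgad in MHCII-low 20435 was at -7.76, where the other MHCII-low arrays were at 2.13 to 3.0. Pecam1, at 0.49 in MHCII-high 20436, stood above the other MHCII-high arrays (-0.30 to -0.18). Icam4 in MHCII-high 20435 was at -2.51 (the others -1.74 to -1.59), and Itga8 in MHCII-high 20439 was at -5.82 (the others -3.97 to -3.88). Itgb6, which was not tested, was at -4.40 in MHCII-low 20439, the MHCII-low array that had it well above background, against -7.66 to -7.20 in the others.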

How the results depend on the processing

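Of 609 values of the 34 members under 18 alternatives, 551 kept their direction and their side of the threshold, 24 lost a call, 13 gained one and 21 turned sign. Itgax and Itga6 were called in all 18. The members called lower numbered 5 with the normexp background and 5 with probes above background on all 8 arrays, against 3. With the slide row as a block, members called higher and lower were 1 and 1, pathway genes 3 and 6 (against 7 and 14) and all genes 300 and 155 (against 750 and 630). Without both 20435 arrays, an alternative chosen after their values were seen, pathway genes were 3 and 5 and all genes 397 and 221. Leaving out 1 array in turn gave 2 members higher each time and 1 to 3 lower, 3 to 6 pathway genes higher and 8 to 14 lower, and 304 to 656 genes higher and 242 to 518 lower. The causes were not tested.

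With the label number as a replicate block, members called were 1 (Itgax) and 1 (Itga6), pathway genes 4 and 11 and all genes 474 and 328; Itgal had an adjusted p of 0.061, Itga9 of 0.058 and Jam2 of 0.055. Same-numbered arrays correlated, in their deviations from the group means, at 0.19, 0.13, 0.21 and 0.084, and each array correlated best with its own number. One value was below 0.1, the cut chosen here for every pair, so the numbers were not treated as pairs in the main fit.

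Values that turned sign were all within 0.40 of 0. Itgam gave -0.0088 with normexp, -0.014 with quantile normalization, -0.011 with the series table, -0.39 with the mean of probes, -0.28 with the row block, -0.041 without both 20435 arrays and -0.23 to 0.16 with 1 array left out. With the mean of probes Icam1 gave 0.0088 and Alcam -0.045, and with the row block Itga1 gave -0.039. With 1 array left out, Alcam ran from -0.050 to 0.054, Itga1 from -0.071 to 0.43, Itga5 from -0.081 to 0.14, Itgb3 from -0.010 to 0.30, Jam3 from -0.34 to 0.95 and Cd44 from -0.17 to 0.0027.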
